A study of Homo sapiens with 6 samples.

Results

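Box C/D small nucleolar RNA genes, whose symbols begin with SNORD, were followed under Comp.4, Comp.2 and vehicle in A549 cells, which are an established line from a human lung adenocarcinoma. Every probe set that the platform annotation pairs with exactly 1 gene symbol beginning with SNORD was taken. This gave 170 probe sets for 157 genes, out of 23871 probe sets with 1 symbol and 22395 genes. Of these, 83 genes belong to the imprinted tandem families SNORD113 to SNORD116 (9, 31, 25 and 18 genes), and 74 genes lie elsewhere. The cells received 2 µM of Comp.4, 2 µM of Comp.2 or vehicle 24 h after plating, and RNA was taken on day 2, with 2 arrays for each of the 3 groups. Comp.4 and Comp.2 are code names: the design text places both under the name 646-PIP, the treatment protocol writes 664-PIP, and the series title speaks of histone acetyltransferase inhibitors that act at chosen DNA sequences. A549 is 1 cell line, and the labels do not say that the 2 arrays of a group came from separate cultures. The p-values therefore set a difference only against the spread between these arrays, and that spread may be technical. The deposited values are log2 RMA signals, a summary of the probes of each probe set after background correction and quantile normalization.

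Box C/D small nucleolar RNAs are short RNAs of the nucleolus that pair with another RNA and place a methyl group on the ribose at the paired site. Fibrillarin (FBL) is the methyltransferase of the particle, and NOP56, NOP58 and SNU13 complete its core. Most members guide ribosomal RNA and a few guide U6 small nuclear RNA, while U3, U8, U13 and U14 act in the maturation of ribosomal RNA itself. In human cells most are cut out of introns of a host gene, often one for a ribosomal protein or for a noncoding transcript such as GAS5 or ZFAS1. SNORD113 and SNORD114 lie in a maternally expressed array on 14q32, and SNORD115 and SNORD116 lie in a paternally expressed array on 15q11, the region of Prader-Willi syndrome.

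All 6 arrays had a median log2 value of 4.55 to 4.56, so a change shared by most transcripts cannot be seen in them. In RNA from bulk samples, fewer cells of a kind and less RNA per cell cannot be told apart. Across genes, Pearson's r between the 2 arrays of a group was 0.996 to 0.997. The epithelial genes KRT18, KRT8, EPCAM and KRT19 and the A549 marker genes AKR1B10 and AKR1C1 lay between percentiles 68.8 and 99.8 of mean signal. Markers of leukocytes lay at percentiles 3.10 (PTPRC), 13.7 (CD3E) and 60.6 (CD14), those of fibroblasts at 3.81 (DCN), 13.97 (LUM) and 51.4 (COL1A1), and those of endothelium at 23.7 (VWF) and 32.2 (CDH5). Precision is limited by the number of arrays, and SNORD probe sets spread more than most. The SD of the difference between the 2 arrays of a group was 0.28 for Comp.4, 0.19 for Comp.2 and 0.24 for vehicle over the 74 SNORD genes, against 0.18, 0.18 and 0.16 over all genes. A SNORD gene is called bright here when its mean over the 6 arrays exceeded that of the median gene, 5.35 on the log2 scale. This held for 51 of the 74 genes outside the imprinted families and for 9 of the 83 within them. The mean of every group exceeded it for 48 and 8 of these: SNORD126, SNORD14E and SNORD20 did not exceed it under Comp.2, and SNORD116-30 under Comp.2 and with vehicle. Over the 48 genes the median differences were 0.13 between Comp.4 and vehicle, -0.05 between Comp.2 and vehicle, and 0.22 between Comp.4 and Comp.2.

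Under Comp.4, 1 SNORD gene rose against vehicle: SNORD71, a guide for 5.8S ribosomal RNA that lies within AP1G1. None fell, and most of the brighter SNORD genes had higher signals under Comp.4 without passing. Of all genes, 0.0536% were called higher and 0.0938% lower in this comparison at an adjusted p under 0.05 (limma, Benjamini-Hochberg over the 22395 genes). SNORD71 had log2 signals of 9.90 and 9.92 under Comp.4, 9.57 and 9.56 under Comp.2, and 9.23 and 9.23 with vehicle. The 3 groups did not overlap, with Comp.4 highest and vehicle lowest. Its difference between Comp.4 and vehicle was 0.68 (SE 0.07, 95% interval 0.52 to 0.84), which is 1.60-fold, with a limma adjusted p of 0.0411. The call was lost when any 1 of the 6 arrays was left out, when the adjusted p lay between 0.104 and 0.270 although the difference stayed between 0.67 and 0.69. It was also lost with only the 2 groups compared in the fit, while a variance trend raised the count to 20 SNORD genes, 19 of them higher.

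Among the 51 bright genes, 40 had a positive difference between Comp.4 and vehicle, and the median was 0.14, against -0.003 over all bright genes of the array. Both Comp.4 arrays lay above both vehicle arrays for 31 of the 51 (60.8%), while 28.4% of all bright genes did so. Both lay below for 6 (11.8%), against 31.1% of all bright genes. Over the 48 genes above the median gene in every group, they lay above for 29 (60.4%) and below for 6 (12.5%). The median departure from the vehicle mean over the 51 genes was 0.16 and 0.18 on the Comp.4 arrays, -0.02 and -0.06 on the Comp.2 arrays, and -0.01 and 0.01 on the vehicle arrays. Both Comp.4 arrays thus carried the shift to a like extent. Over all 74 genes the median was 0.10, and over the 23 dimmer genes it was -0.12. Before adjustment, 34 of the 157 SNORD genes were higher under Comp.4 and 9 lower at p under 0.05, against 8.64% and 7.88% of all genes.

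**Figure D1:**
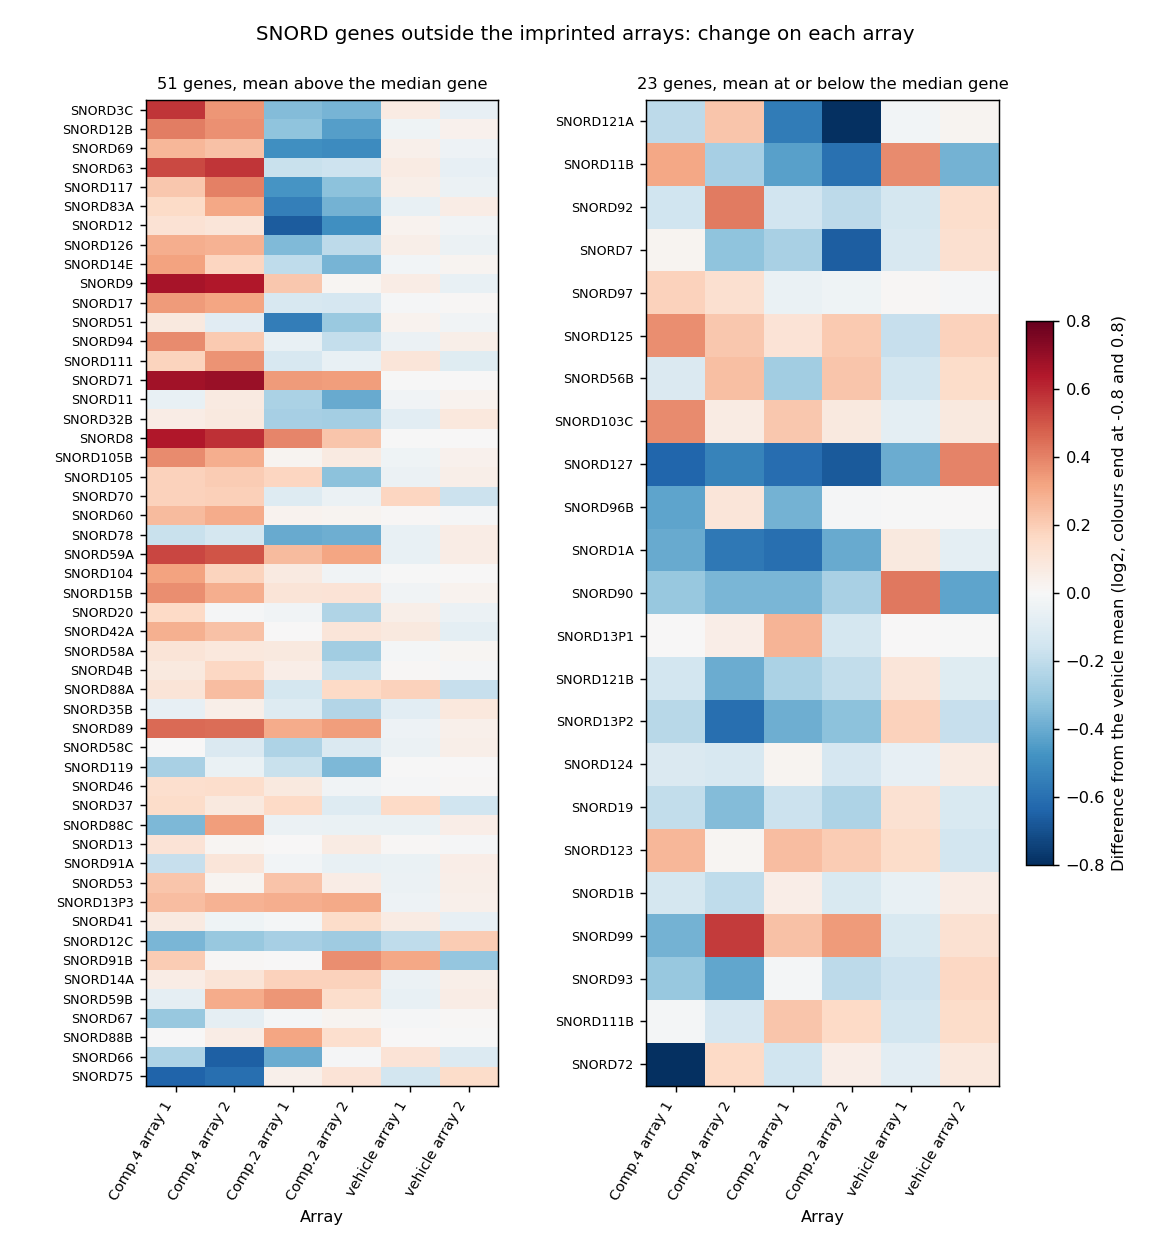
Log2 difference of each array from the vehicle mean for the 74 SNORD genes outside the imprinted families, 1 row per gene and 1 column per array, sorted by the difference between Comp.4 and Comp.2; colours end at -0.8 and 0.8. The 51 bright genes on the left are mostly red in the 2 Comp.4 columns and mixed in the 2 Comp.2 columns, and SNORD75 at the foot is deep blue in both Comp.4 columns.

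Among bright genes outside the imprinted families, the highest differences between Comp.4 and vehicle after SNORD71 belonged to guides of U6 small nuclear RNA. SNORD8 and SNORD9 are related guides for the same U6 nucleotide, and both lie within the chromatin remodeller gene CHD8. SNORD8 had log2 signals of 10.40 and 10.35 under Comp.4, 10.16 and 9.98 under Comp.2, and 9.76 and 9.77 with vehicle. SNORD9 had 8.26 and 8.24 under Comp.4, 7.82 and 7.62 under Comp.2, and 7.66 and 7.54 with vehicle. Comp.4 was above vehicle on every array for both genes, but the differences of 0.61 and 0.65 did not pass, with limma adjusted p-values of 0.0641 and 0.0704. The other U6 guides with a probe set of their own, a group put together after their values were seen, differed less. SNORD94 differed by 0.29 between Comp.4 and vehicle, and SNORD67 by -0.19, neither past the threshold. SNORD7 was dim, and its Comp.4 arrays of 5.23 and 4.89 overlapped the vehicle arrays of 5.08 and 5.34, while Comp.2, at 4.95 and 4.55, lay below vehicle by 0.46 (adjusted p = 0.409).

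Guides of ribosomal RNA came next among these bright genes. SNORD63, a guide for 28S ribosomal RNA within the mitochondrial chaperone gene HSPA9, differed by 0.55 (limma adjusted p = 0.0704). SNORD59A, a guide for 18S ribosomal RNA within the ATP synthase gene ATP5F1B, had log2 signals of 9.68 and 9.64 under Comp.4, 9.40 and 9.46 under Comp.2, and 9.08 and 9.20 with vehicle. Its groups did not overlap, and the difference of 0.52 between Comp.4 and vehicle had a limma adjusted p of 0.0749. SNORD59B, the neighbour within the same host, differed by 0.11 and its arrays overlapped.

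On the lower side, SNORD75, a guide for 28S ribosomal RNA within GAS5, had the lowest difference of the bright genes. It had log2 signals of 6.07 and 6.11 under Comp.4, 6.75 and 6.82 under Comp.2, and 6.56 and 6.86 with vehicle. Comp.4 lay below both other groups, which overlapped each other. Its differences of -0.62 (SE 0.11) from vehicle and -0.70 from Comp.2 did not pass, with limma adjusted p-values of 0.0868 and 0.0678. SNORD66, within EIF4G1, differed by -0.45 and SNORD12C, within ZFAS1, by -0.33 between Comp.4 and vehicle. SNORD78, a second GAS5 member, differed by -0.16. None of the 3 passed.

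Comp.2 gave no called SNORD gene in either direction against vehicle, where 0.134% of all genes were called higher and 0.0625% lower. At an unadjusted p under 0.05, limma placed 14 SNORD genes higher and 18 lower, against 6.23% and 4.94% of all genes. A variance trend called 5 SNORD genes higher and 9 lower. The lowest adjusted p-values were those of SNORD12 and SNORD69, both 0.0804, with differences of -0.58 and -0.49. SNORD83A, within the ribosomal protein gene RPL3, differed by -0.46, SNORD51, within the elongation factor gene EEF1B2, by -0.43, and SNORD117, within the RNA helicase gene DDX39B, by -0.40. These 5 were the lowest differences among bright genes with no overlap, and none passed. The highest on the same terms were 0.34 for SNORD71, 0.31 for SNORD89, 0.31 for SNORD8, 0.30 for SNORD13P3, named as a copy of U13, and 0.29 for SNORD59A.

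Over the 51 bright genes, the median difference between Comp.2 and vehicle was -0.06, and 23 were positive. Comp.2 lay above vehicle on every array for 11 genes (21.6%), against 23.5% of all bright genes. Comp.2 lay below on every array for 19 genes (37.3%), against 27.1% of all bright genes. Over the 48 genes above the median gene in every group, it lay above for 11 (22.9%) and below for 17 (35.4%). Over all 74 genes the median was -0.07, and over the 23 dimmer genes it was -0.11.

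Compared with Comp.2, 6 SNORD genes rose under Comp.4 and none fell, where 0.192% of all genes were called higher and 0.179% lower. Before adjustment, limma placed 36 SNORD genes higher and 5 lower at p under 0.05, against 7.52% and 7.45% of all genes. The 6 were SNORD3C, a copy of U3, which acts in the first cleavages of the ribosomal RNA precursor; SNORD12 and SNORD12B, both within ZFAS1; SNORD69, within the nucleolar GTPase gene GNL3; SNORD63, within HSPA9; and SNORD117, within DDX39B. Except for SNORD3C and SNORD117, they are guides for 28S ribosomal RNA. The differences of both compounds from vehicle share the vehicle arrays, and all 6 arrays enter the variance behind each call.

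SNORD3C had log2 signals of 10.65 and 10.43 under Comp.4, 9.73 and 9.71 under Comp.2, and 10.15 and 10.01 with vehicle. Comp.4 lay above vehicle, and vehicle above Comp.2, on every array. Between Comp.4 and Comp.2 the difference was 0.82 (SE 0.10, 95% interval 0.59 to 1.05), which is 1.77-fold, with a limma adjusted p of 0.0365. Near-identical U3 copies exist, so its probes may also read other copies.

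Both SNORD12 paralogues showed the same order. SNORD12B had 8.62 and 8.58 under Comp.4, 7.88 and 7.77 under Comp.2, and 8.17 and 8.25 with vehicle. SNORD12 had 8.15 and 8.13 under Comp.4, 7.37 and 7.54 under Comp.2, and 8.06 and 8.01 with vehicle. For SNORD12B the vehicle arrays lay about midway, and for SNORD12 they lay close to Comp.4. The differences between Comp.4 and Comp.2 were 0.77 (1.71-fold, adjusted p = 0.0259) and 0.68 (1.61-fold, adjusted p = 0.0385). SNORD12C, the third member within ZFAS1, had 7.02 and 7.09 under Comp.4, 7.13 and 7.10 under Comp.2, and 7.19 and 7.59 with vehicle. Here the Comp.4 arrays were the lowest, and its difference of -0.06 from Comp.2 did not pass.

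SNORD69 had 10.06 and 10.03 under Comp.4, 9.31 and 9.29 under Comp.2, and 9.84 and 9.75 with vehicle. SNORD63 had 10.17 and 10.21 under Comp.4, 9.46 and 9.47 under Comp.2, and 9.71 and 9.57 with vehicle. For both genes the 3 groups did not overlap and Comp.4 was highest, but vehicle lay nearer to Comp.4 for SNORD69 and nearer to Comp.2 for SNORD63. The differences between Comp.4 and Comp.2 were 0.75 (1.68-fold, adjusted p = 0.024) and 0.72 (1.65-fold, adjusted p = 0.028). SNORD117 had 7.73 and 7.91 under Comp.4, 7.04 and 7.18 under Comp.2, and 7.56 and 7.46 with vehicle, again in the same order. It differed by 0.71 (1.64-fold, adjusted p = 0.0493) between Comp.4 and Comp.2. The gene lies in the major histocompatibility region and has 8 probe sets on the array, which hold only 2 distinct series of values and gave differences of 0.71 to 0.77. Leaving out any 1 of the 6 arrays ended all 6 calls, with differences from 0.60 to 0.93 and adjusted p-values from 0.076 to 0.218. With all probe sets of the array tested or only the 2 groups in the fit the count was 0, and with a variance trend it was 29, of which 28 were higher.

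**Figure D2:**
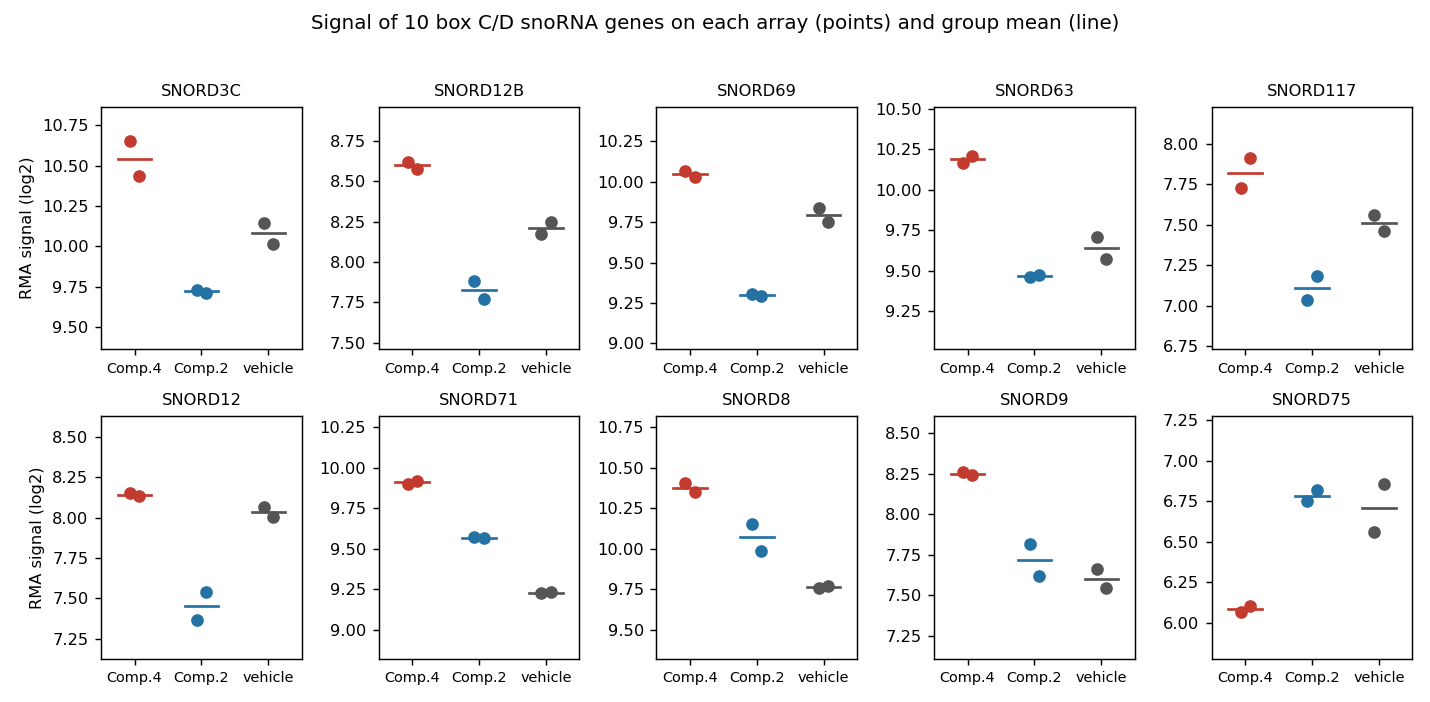
Log2 RMA signal of 10 SNORD genes on each array (points) with the group mean (line), for Comp.4, Comp.2 and vehicle from left to right; each panel has its own axis, which does not start at 0. In the first 6 panels, the genes called between Comp.4 and Comp.2, vehicle lies between the compounds, while SNORD71 and SNORD8 have vehicle lowest and SNORD75 has Comp.4 lowest.

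Over the 51 bright genes, the median difference between Comp.4 and Comp.2 was 0.22, and 39 were positive, against a median of -0.003 over all bright genes. Comp.4 lay above Comp.2 on every array for 33 genes (64.7%), where 26.6% of all bright genes did, and below for 6 genes (11.8%), where 28.3% did. Over the 48 genes above the median gene in every group, it lay above for 30 (62.5%) and below for 6 (12.5%). Over all 74 genes the median was 0.15, and over the 23 dimmer genes it was -0.02. The strict order of Comp.4 above vehicle above Comp.2, with no overlap, held for 11 of the 51 (21.6%), and for 3.98% of all bright genes. These were SNORD117, SNORD12, SNORD126, SNORD12B, SNORD14E, SNORD17, SNORD3C, SNORD63, SNORD69, SNORD83A and SNORD94. Among them, SNORD126 and SNORD14E count as bright only through Comp.4 and vehicle, as their Comp.2 means did not exceed the median gene. The reverse order held for 0 of the 51 and for 3.42% of all bright genes. The order of Comp.4 above Comp.2 above vehicle held for 6 (11.8%), namely SNORD15B, SNORD59A, SNORD60, SNORD71, SNORD8 and SNORD89, and for 3.44% of all bright genes.

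Of these, SNORD83A had 6.46 and 6.62 under Comp.4, 5.76 and 5.93 under Comp.2, and 6.25 and 6.36 with vehicle, and lay next to the threshold with a difference of 0.70 between Comp.4 and Comp.2 (limma adjusted p = 0.0558). SNORD17, a guide for 28S ribosomal RNA within SNX5, differed by 0.46 and SNORD126, within CCNB1IP1, by 0.57, both with an adjusted p of 0.0593. On the lower side, after SNORD75, the bright genes with no overlap differed by little: -0.20 for SNORD88B, -0.19 for SNORD67, -0.10 for SNORD14A and -0.06 for SNORD12C.

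The small nucleolar RNAs that act in ribosomal RNA maturation were all higher under Comp.4 than with vehicle, but did not share a direction under Comp.2. Of 13 such genes written down, 4 had a probe set of their own. Both Comp.4 arrays lay above both vehicle arrays for all 4, as for 28.4% of all bright genes, with differences of 0.06 to 0.46. Between Comp.2 and vehicle, 2 of the 4 differences were positive. SNORD13, the U13 RNA that directs acetylation of 18S ribosomal RNA, had 12.99 and 12.89 under Comp.4, 12.89 and 12.94 under Comp.2, and 12.89 and 12.87 with vehicle. Its differences were 0.06 between Comp.4 and vehicle, 0.04 between Comp.2 and vehicle, and 0.03 between Comp.4 and Comp.2. The U14 copies SNORD14A, within RPS13, and SNORD14E, within HSPA8, went different ways from vehicle only under Comp.2. SNORD14A differed by 0.08 between Comp.4 and vehicle and 0.18 between Comp.2 and vehicle, and SNORD14E by 0.25 and -0.29. Of the 4, SNORD3C alone passed, and only in the comparison of Comp.4 with Comp.2, where SNORD14E differed by 0.54 (adjusted p = 0.0819). SNORD72 was the 1 measured gene of 8 that are in common use as controls for small RNA PCR. It was dim, with 3.29 and 4.63 under Comp.4, 4.31 and 4.53 under Comp.2, and 4.39 and 4.56 with vehicle, and its difference of -0.51 between Comp.4 and vehicle came from the low first Comp.4 array.

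Box H/ACA genes, the other class of small nucleolar RNAs, differed in the same directions. The 42 bright SNORA genes had median differences of 0.38 between Comp.4 and vehicle, -0.12 between Comp.2 and vehicle, and 0.50 between Comp.4 and Comp.2. Their median departures from the vehicle mean were 0.34 and 0.35 on the Comp.4 arrays, -0.06 and -0.18 on the Comp.2 arrays, and -0.02 and 0.02 on the vehicle arrays. The order of Comp.4 above vehicle above Comp.2 held for 13 of these 42 (31%). Bright genes of other short structured RNA classes differed in the same directions when Comp.4 was compared with vehicle or Comp.2. The 16 bright SCARNA genes, guides of the Cajal body, had medians of 0.33 between Comp.4 and vehicle, -0.18 between Comp.2 and vehicle, and 0.37 between Comp.4 and Comp.2. The 23 bright RNU-named genes, of small nuclear RNAs and their copies, had medians of 0.28, -0.06 and 0.29 in the same comparisons, and the 63 bright RN5S-named genes had 0.09, 0.04 and 0.08. Over all 143 RNU-named genes, most of them dim, the medians were 0.01, -0.02 and 0.02. The part of a common feature of short RNAs in the SNORD values was not tested.

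**Figure D3:**
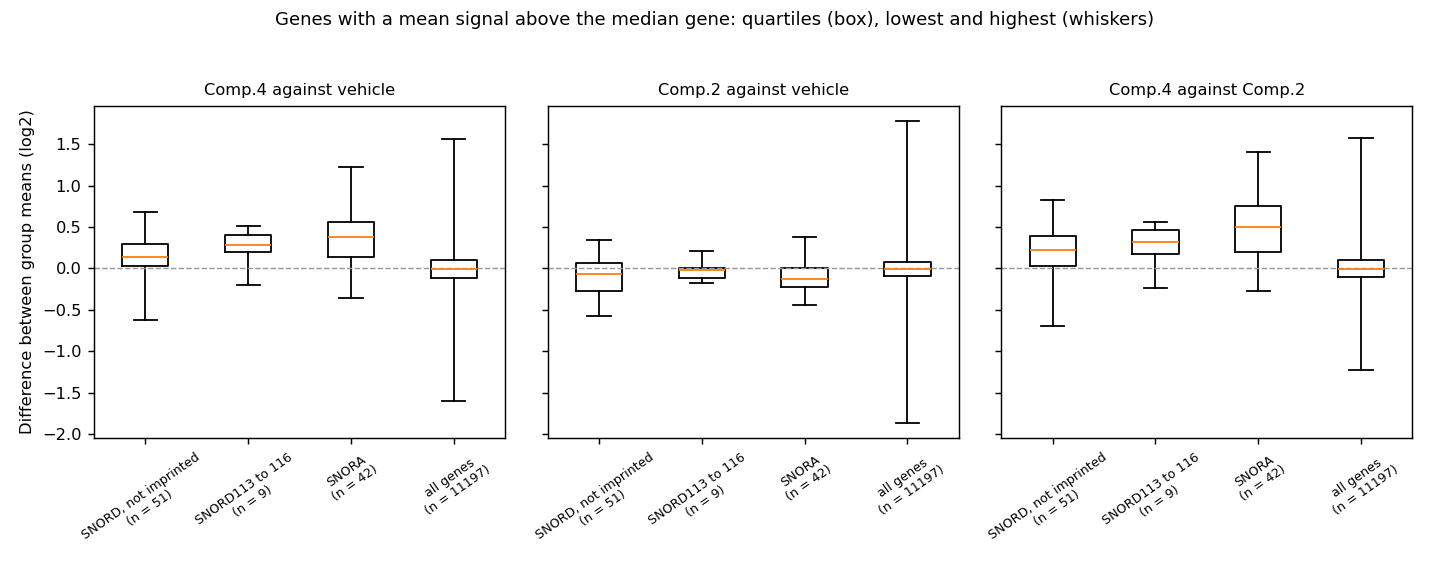
Log2 differences between group means for bright genes in the 3 comparisons: SNORD genes outside the imprinted families (n = 51), SNORD113 to SNORD116 (n = 9), SNORA genes (n = 42) and all genes (n = 11197), with quartiles as boxes and the lowest and highest value as whiskers. The SNORD medians of 0.14 and 0.22 in the 2 comparisons of Comp.4 lie above 0 and below the SNORA medians of 0.38 and 0.50.

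In the imprinted families no gene was called in any of the 3 comparisons. At an unadjusted p under 0.05, limma placed 12 of the 83 genes higher and 0 lower under Comp.4 against vehicle, 7 higher and 1 lower under Comp.2 against vehicle, and 9 higher and 3 lower under Comp.4 against Comp.2. Of all genes, 8.64% and 7.88%, 6.23% and 4.94%, and 7.52% and 7.45% were placed so. Over the 83 genes the median differences were 0.06, 0.01 and 0.03 in that order of comparisons, against 0.02, 0.004 and 0.01 over all genes. Most of these probe sets were dim, as 0 of 9 SNORD113, 2 of 31 SNORD114, 0 of 25 SNORD115 and 7 of 18 SNORD116 genes were bright.

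SNORD116 held most of the signal. Its median differences over 18 genes were 0.17 between Comp.4 and vehicle, -0.06 between Comp.2 and vehicle, and 0.18 between Comp.4 and Comp.2. SNORD116-24 had log2 signals of 9.89 and 9.88 under Comp.4, 9.44 and 9.21 under Comp.2, and 9.46 and 9.50 with vehicle. Comp.4 was highest on every array, and the difference of 0.56 from Comp.2 had a limma adjusted p of 0.0806. SNORD116-15 had 10.50 and 10.42 under Comp.4, 10.24 and 10.14 under Comp.2, and 10.15 and 10.21 with vehicle, again with Comp.4 highest. Its difference of 0.28 between Comp.4 and vehicle did not pass. SNORD116-27, a dim member, differed by 0.86 between Comp.4 and vehicle and by 0.67 between Comp.2 and vehicle, the largest differences of the family in both, and neither passed. The lowest differences in SNORD116 were -0.23 for SNORD116-10 between Comp.4 and vehicle and -0.34 for SNORD116-29 between Comp.2 and vehicle.

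The copies of SNORD116 are similar in sequence, and probes may read more than 1 of them, so they are not independent. The 9 bright imprinted genes had median differences of 0.28 between Comp.4 and vehicle, -0.02 between Comp.2 and vehicle, and 0.31 between Comp.4 and Comp.2, beside 0.14, -0.06 and 0.22 for the bright genes outside the imprinted families. SNORD116-30 exceeded the median gene in its Comp.4 mean alone, and without it the 8 others had medians of 0.25, -0.05 and 0.29.

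The other 3 families had lower medians than SNORD116 in both comparisons of Comp.4. SNORD114 had a median of 0.10 between Comp.4 and vehicle, 0.10 between Comp.2 and vehicle, and 0.05 between Comp.4 and Comp.2. SNORD113 had medians of 0.02, 0.003 and 0.004 in the same comparisons, and SNORD115, known for pairing with a serotonin receptor transcript in brain, had -0.001, 0.03 and -0.01. SNORD114-1 was the brighter member of its array, with 8.63 ± 0.30 under Comp.4, 8.17 ± 0.24 under Comp.2, and 8.20 ± 0.23 with vehicle (SD, n = 2 each). Its difference of 0.43 between Comp.4 and vehicle did not pass. SNORD114-3 differed by 0.63 between Comp.4 and vehicle (adjusted p = 0.0749), with a dim signal of 3.67 and 3.90 under Comp.4, 3.63 and 3.54 under Comp.2, and 3.16 and 3.15 with vehicle. The lowest differences in SNORD114 were those of SNORD114-31, at -0.55 between Comp.4 and vehicle and -0.60 between Comp.2 and vehicle. Between Comp.4 and vehicle, SNORD113 ran from -0.23 (SNORD113-8) to 0.34 (SNORD113-7), and SNORD115 from -0.20 (SNORD115-32) to 0.23 (SNORD115-48). Between Comp.2 and vehicle, SNORD113 ran from -0.25 (SNORD113-9) to 0.22 (SNORD113-7), and SNORD115 from -0.25 (SNORD115-32) to 0.25 (SNORD115-45). The host transcript MEG8 of the 14q32 array differed by 0.11 between Comp.4 and vehicle and by 0.03 between Comp.2 and vehicle.

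**Figure D4:**
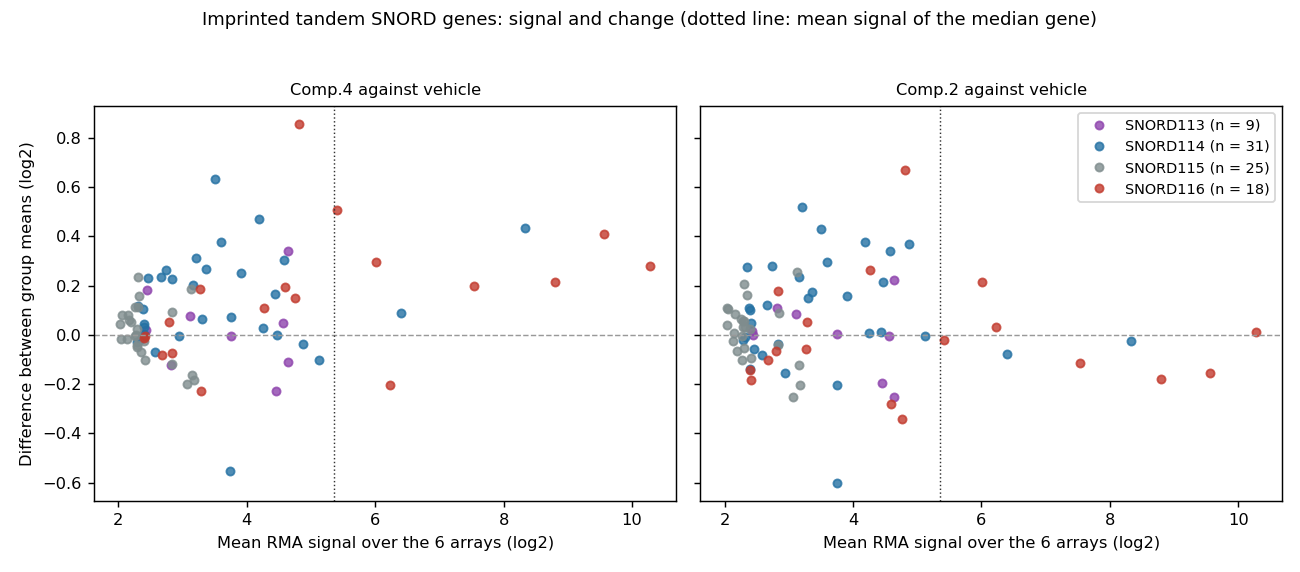
Difference from vehicle (log2) against mean RMA signal over the 6 arrays (log2) for the 83 imprinted SNORD genes, under Comp.4 on the left and Comp.2 on the right; the dotted line marks the median gene at 5.35. The 25 SNORD115 genes cluster at low signal near 0, and the bright SNORD116 genes lie above 0 under Comp.4 except for 1.

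Because box C/D RNAs are cut from introns, each member was set beside the gene that spans it in the RefSeq annotation. Of the 74 genes outside the imprinted families, 69 had a spanning gene, and 49 pairs had a measured host. Spanning was judged by position alone, not by strand or intron. A gene called host in these pairs therefore need not be the one its member is cut from. The pairs include SNORD13P1, SNORD13P2 and SNORD13P3, named as copies of U13, with PHETA2, FOXK1 and KIF9. For 32 pairs the member was bright, with 23 hosts. Over these pairs the median difference between Comp.4 and vehicle was 0.12 for the members and -0.07 for the hosts, and the member exceeded its host in 24. Between Comp.4 and Comp.2 the medians were 0.22 and -0.01, with the member above in 20. Between Comp.2 and vehicle they were -0.02 and -0.08, with the member above in 17. Pearson's r between member and host differences, across pairs that share arrays and in part hosts, was -0.19, -0.26 and 0.32 in these 3 comparisons. Over all 49 pairs it was 0.26, -0.12 and 0.14, so its sign turned in the first. An array probe set cannot tell a mature small nucleolar RNA from the intron it is cut from.

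**Figure D5:**
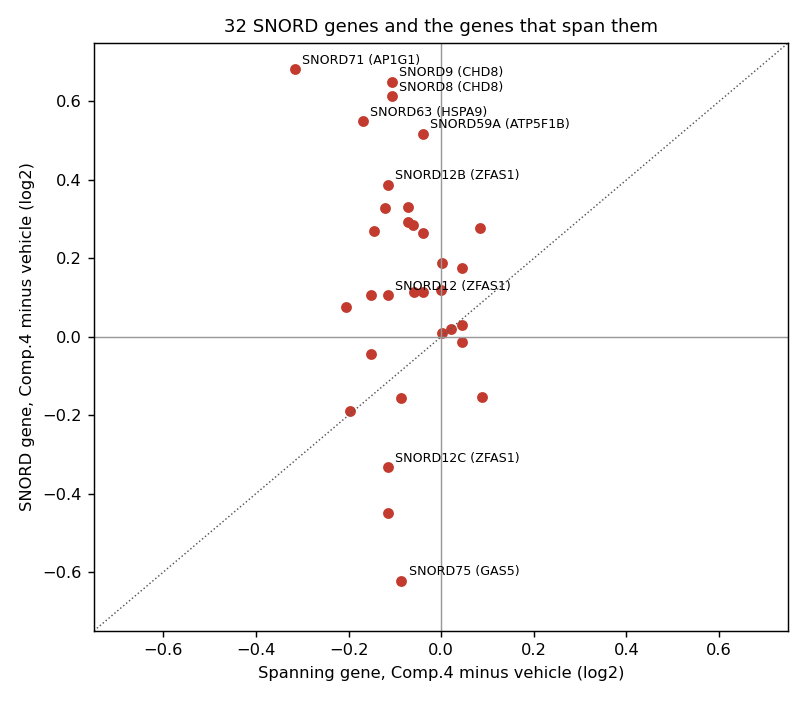
Difference between Comp.4 and vehicle (log2) of 32 bright SNORD genes (vertical axis) against that of the gene spanning each (horizontal axis), with the dotted line marking equal differences. The spanning genes lie in a narrow band, mostly below 0, from -0.32 for AP1G1 to 0.09 for SNRPB. Their members range from -0.62 for SNORD75 to 0.68 for SNORD71.

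Of the 32 pairs with a bright member, 12 had member and host differences of the same sign between Comp.4 and vehicle. This held for 13 between Comp.4 and Comp.2 and for 19 between Comp.2 and vehicle. The single hosts below are examples in which member and host differed in size or sign. AP1G1, an adaptor subunit of vesicle coats, differed by -0.32 between Comp.4 and vehicle (adjusted p = 0.117), while SNORD71 within it rose by 0.68. HSPA9 differed by -0.17 and CHD8 by -0.11, while SNORD63 and SNORD8 within them differed by 0.55 and 0.61. ZFAS1 differed by 0.05 between Comp.4 and Comp.2, where SNORD12B rose by 0.77, SNORD12 rose by 0.68 and SNORD12C differed by -0.06. GAS5 differed by -0.09 between Comp.4 and vehicle, beside -0.62 for SNORD75. The 3 members within NOP58, SNORD11, SNORD11B and SNORD70, differed by 0.34, 0.54 and 0.26 between Comp.4 and Comp.2, where NOP58 itself differed by -0.14. None of these 3 members passed. SNORD11B was dim and its arrays spread widely, with 4.13 and 3.55 under Comp.4, 3.38 and 3.22 under Comp.2, and 4.19 and 3.44 with vehicle. Of 28 known host genes written down, 12 were measured and 0 were called by limma in any comparison. At an unadjusted p under 0.05, limma placed 0 of these 12 higher. It placed 2 lower under Comp.4 against vehicle, 2 under Comp.2 against vehicle and 1 under Comp.4 against Comp.2. Of all genes, 7.88%, 4.94% and 7.45% were lower in these comparisons. The list of 12 leaves out other spanning genes of the pairs above, some of which passed the same unadjusted threshold. Under Comp.4 against Comp.2, SNRPB (0.37) and C19orf48P (0.22) were higher, and AP1G1 (-0.36), UBAP2 (-0.32) and FOXK1 (-0.24) lower. Under Comp.4 against vehicle, AP1G1, UBAP2, RPL37, FOXK1, SIPA1L1, CKAP5 and HSPA9 were lower. Under Comp.2 against vehicle, SNRPB and FOXK1 were lower.

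Many host genes begin transcription at a run of C and T letters, the terminal oligopyrimidine tract that ties translation of ribosomal protein genes to growth. The 100 bases around the start sites of ZFAS1, which hosts 2 of the called members, and AP1G1, which hosts SNORD71, are shown to set both kinds of start side by side. They are from RefSeq, build GRCh38.p14, written 5′ to 3′ on the strand of the gene, at chr20:49278592-49278691 (plus strand) for ZFAS1 and chr16:71808785-71808884 (minus strand) for AP1G1. Capitals mark a C followed by at least 4 more C or T letters that begins within 5 bases of the start, searched on the strand of the gene only.
ZFAS1: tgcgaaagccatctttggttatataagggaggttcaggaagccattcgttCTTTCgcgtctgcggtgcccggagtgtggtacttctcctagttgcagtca
AP1G1: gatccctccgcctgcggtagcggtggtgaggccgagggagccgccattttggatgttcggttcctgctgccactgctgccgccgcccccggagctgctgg
The ZFAS1 window holds such a run at the start itself. The AP1G1 window holds none within 5 bases of the annotated start, nor do those of GNL3, HSPA9, CHD8 and GAS5. The search rests on the annotated start, so a run at a start used elsewhere would be missed. The GAS5 window holds a longer run of C and T letters (cctttttt) further downstream. A window without a marked run therefore does not show that its gene, GAS5 among them, lacks the tract. Of all 35116 RefSeq promoters searched, 21.1% hold one.

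The genes of the particle's proteins gave no call. Of the 4 core genes, 3 were measured. FBL differed by -0.03 between Comp.4 and vehicle and -0.15 between Comp.2 and vehicle, NOP58 by 0.002 and 0.14, and SNU13 by 0.17 and -0.05. None of the 3 was called by limma or had an unadjusted p under 0.05. Of the 10 genes written for assembly of the particle, among them RUVBL1, RUVBL2 and NUFIP1, all 10 were measured and 0 were called. At an unadjusted p under 0.05, limma placed 2 of these higher and 1 lower under Comp.4 against vehicle, 0 higher and 2 lower under Comp.2 against vehicle, and 2 higher and 0 lower under Comp.4 against Comp.2. Of all genes, 8.64% were higher and 7.88% lower, 6.23% higher and 4.94% lower, and 7.52% higher and 7.45% lower in these comparisons. The highest differences between Comp.4 and Comp.2 were 0.49 for ZNHIT3 (adjusted p = 0.0593) and 0.35 for PIH1D1 (adjusted p = 0.112), picked after their values were seen. ZNHIT3 had log2 signals of 7.94 and 7.87 under Comp.4, 7.43 and 7.41 under Comp.2, and 7.65 and 7.60 with vehicle, with no overlap.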

How the data were processed

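Total RNA of 6 A549 samples was measured on Affymetrix whole-transcript arrays. The deposited table holds log2 values that the authors made with RMA, per the submitters' processing notes, which list Transcriptome Analysis Console 2.0 and Affymetrix Expression Console 1.3.1 as well. The annotation build is not given in the sources used here.

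Probe sets with 1 symbol were kept, and the one with the highest mean stood for a gene (22395 genes, 157 of them SNORD). Of 170 SNORD probe sets, 167 matched RefSeq by Entrez number. limma 3.58.1 in R 4.3.3 fitted a mean per group to all 6 arrays (3 residual and 3.71 prior degrees of freedom), with two-sided p-values adjusted by the Benjamini-Hochberg method over all genes and a threshold of 0.05. A permutation of 2 arrays against 2 cannot go below p = 0.333, so none was run. The fit was run on simulated data with independent arrays and a variance unrelated to the signal. Such data cannot show how the fit behaves where the variance changes with the signal.

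The members, gene lists and alternatives were chosen with earlier results of these data known. The genes named are those past the threshold, the 5 highest and 5 lowest differences per comparison among bright genes with no overlap, processing and control RNAs, and the extremes of each imprinted family; other genes given as examples were chosen after their values were seen. Probe sets with several symbols entered no comparison. Alternatives changed the probe sets tested, the variance model, the arrays and the replicate block.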

Additional observations from a re-analysis of the deposited data

How the results depend on the processing

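The number of SNORD genes past the threshold depended on the fit, while the median differences kept their sign in all alternatives run, except that of the imprinted families between Comp.2 and vehicle, which was 0.01 as reported and -0.02 over genes above the median gene. Counts are given for Comp.4 against vehicle and then for Comp.4 against Comp.2, where the reported counts were 1 and 6. With the replicate number as a block they were 0 and 0, and the count for Comp.2 against vehicle stayed 0. Deviations of same-numbered arrays correlated at -0.04 to 0.03 over all genes. These values show no pairing by number across all genes, but they cannot exclude a pairing that acts on few of them. With only the 2 groups compared in the fit they were 0 and 0, and with any 1 array left out they ranged from 0 to 0 in all 3 comparisons. With all probe sets of the array they were 1 and 0, and with all probe sets of 1 symbol 1 and 7, where SNORD83A was added. Among genes above the median gene they were 15 and 19, and with a variance trend 20 and 29, while the reported 0 of Comp.2 against vehicle became 6 and 14. Among the 11197 genes above the median gene, that fit called 340 higher and 499 lower for Comp.4 against vehicle, 324 and 392 for Comp.4 against Comp.2, and 154 and 79 for Comp.2 against vehicle. The variance trend called 488 genes higher and 738 lower over the whole array for Comp.4 against vehicle, 484 and 591 for Comp.4 against Comp.2, and 226 and 162 for Comp.2 against vehicle. Limiting the tests to genes above the median gene also changed which SNORD genes entered the medians, which became 0.22 outside the imprinted families for Comp.4 against Comp.2, and 0.28 and 0.31 in the imprinted families for Comp.4 against vehicle and Comp.4 against Comp.2.

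With 1 array left out, the medians outside the imprinted families ranged from 0.08 to 0.10 for Comp.4 against vehicle, from -0.11 to -0.05 for Comp.2 against vehicle, and from 0.11 to 0.18 for Comp.4 against Comp.2. Those of the imprinted families ranged from 0.06 to 0.09, from 0.01 to 0.03 and from 0.02 to 0.05 in the same comparisons. An alternative chosen after the data were seen, without the other small RNA genes, gave 1 and 5, and SNORD117 was the call lost. Low signal limits the imprinted families most, since 74 of their 83 genes were not above the median gene. Defining bright by every group mean was also chosen after the data were seen.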

Other observations

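A further 141 probe sets carry several symbols of which at least 1 is a SNORD gene, often beside that of the host. Their median differences were -0.12 between Comp.4 and vehicle, -0.05 between Comp.2 and vehicle, and -0.03 between Comp.4 and Comp.2. For the 31 of them whose symbols are all SNORD genes, the medians were 0.13, 0.03 and 0.07 in the same comparisons. Of these 31, 22 were positive between Comp.4 and vehicle, 23 between Comp.2 and vehicle, and 22 between Comp.4 and Comp.2. Of the 141, 51, 58 and 56 were positive in the same comparisons.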
